A study of Mus musculus with 9 samples.

Results

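Gemcitabine is an analog of deoxycytidine, and 9 genes that carry such analogs into the cell, activate them, inactivate them, or encode their target were examined in the mouse liver after CD40 activation. The genes were Slc29a1, Dck, Cmpk1, Cda, Dctd, Rrm1, Rrm2, Rrm2b, and Samhd1. They were listed by name for these roles, and all 9 were found among the 24341 genes of the deposited table. After anti-CD40, transcripts of the uptake carrier Slc29a1 fell, whereas those of the kinase Dck, the deaminase Dctd, the reductase subunits Rrm1 and Rrm2, and the triphosphate hydrolase Samhd1 rose. Cmpk1, Cda, and Rrm2b did not pass the test.

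Gemcitabine enters cells through nucleoside carriers, of which the product of Slc29a1 (ENT1) is a main one. Deoxycytidine kinase, the product of Dck, then adds the first phosphate, and Cmpk1 encodes the kinase that adds the next. Cytidine deaminase (Cda) inactivates the free nucleoside, and deoxycytidylate deaminase (Dctd) acts on the monophosphate. The diphosphate inhibits ribonucleotide reductase, which makes deoxynucleotides from ribonucleotides and whose large subunit is encoded by Rrm1 and small subunits by Rrm2 and Rrm2b. The triphosphate is built into DNA in competition with deoxycytidine triphosphate, and Samhd1 encodes a hydrolase that breaks down deoxynucleoside triphosphates. The liver clears pyrimidine nucleosides from the blood and breaks pyrimidine bases down.

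RNA was sequenced from the livers of 9 wild-type (WT) C57BL/6 mice, collected 48 hours after treatment. The 3 anti-CD40 mice (numbered 2, 5, and 9) had received FGK45, an antibody that activates the receptor CD40, and the 6 control mice (3, 4, 7, 8, 11, and 12) had PBS. The question of the study behind this comparison was how CD40 activation changes the liver and its tolerance of chemotherapy given afterward. No gemcitabine is named in the labels of these mice. Each mouse gave 1 library, and the labels give neither age nor sex nor a batch. The study's methods describe mice matched by age and sex, and state that mice whose B cells did not drop in the blood after anti-CD40 were left out.

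Values are FPKM, a count of fragments scaled to the depth of the library and to the length of the transcript. The libraries were read from the 3′ end of each transcript, so dividing by length does not put different genes on a common scale. Levels are therefore compared between mice only, within a gene, a ratio of 2 genes, or the sum of a list. A sum mostly follows the genes with the highest FPKM. Such genes were S100a8 and S100a9 among neutrophil markers (means 3316 and 1437 after anti-CD40) and Isg15 among interferon-stimulated genes (793). In pyrimidine breakdown it was Upp2 (969 in the control mice). Changes are differences in log2(FPKM + 0.1) with the SE from limma, a linear model fitted to all 13807 genes with a mean of at least 0.1 FPKM, and p-values were adjusted by the Benjamini-Hochberg method over all of them. All 9 genes passed this filter. Dctd passed it only through the anti-CD40 mice, as its control mean was 0.0592 FPKM. An adjusted p under 0.05 is called a change. Of the genes tested, 45.1% changed, 23.5% higher and 21.7% lower after anti-CD40, and in 42.4% the values of the groups did not overlap. A second test, the exact permutation test over all 84 ways of assigning the 9 mice to groups of 3 and 6, cannot give a 2-sided p below 0.0238. These p-values measure the spread between the mice of this experiment.

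The groups differed in cell type markers. Transcripts of 6 of 7 hepatocyte markers tested fell, with a summed level of 11465 to 13519 FPKM in the anti-CD40 mice against 22104 to 39526 in the control mice, and Fgb, a fibrinogen chain of the acute phase, rose (named after its values were seen). All 5 Kupffer cell markers fell (37.2 to 48.1 FPKM summed, against 268 to 425). Clec4f, which defines these cells, averaged 0.107 FPKM against 20.8, and Vsig4 averaged 0.405 against 40.4 (both named after their values were seen). Of the leukocyte lists, 6 of 6 neutrophil markers (4210 to 5196 FPKM summed, against 18.3 to 155), 5 of 7 monocyte or macrophage markers (143 to 167, against 19.4 to 31.9), 4 of 4 B cell markers (24.3 to 34.7, against 1.59 to 6.54), 4 of 4 NK cell markers (65.1 to 92.8, against 3.45 to 12.7), and 4 of 5 T cell markers (6.29 to 8.47, against 1.99 to 3.31) rose, and no marker tested in these lists was at the floor in all mice. Of these, the neutrophil genes Ltf and Cxcr2, the T cell gene Cd8a, and the B cell gene Cd79a passed the filter only through the anti-CD40 mice. The monocyte or macrophage list also held Adgre1, which fell (log2 fold change -1.49, adjusted p = 0.00209 by limma), and Csf1r, which did not pass the test (-0.62, adjusted p = 0.0837 by limma), and these 6 genes were named after their values were seen. Named in the same way, the neutrophil genes Mpo and Elane, the B cell gene Pax5, and the NK cell gene Prf1 were too low to be tested. Their groups overlapped. Mpo averaged 0.139 FPKM after anti-CD40 and 0.0470 in the controls, and Elane 0.0916 and 0.0624. The hepatocyte marker Tf, the neutrophil marker Ly6g, and the T cell marker Trac were listed but not found in the deposited table. In bulk tissue, fewer cells of a type and less RNA per cell cannot be told apart, and the part of cell content in the changes of single genes was not tested. Anti-CD40 mouse 5 stood apart in summed pancreatic acinar transcripts (538 FPKM, against 27.2 and 30.7 in mice 2 and 9), and control mouse 4 had the highest neutrophil sum of the controls. With both left out, the same count of the 9 genes changed (5 higher and 1 lower).

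Among the 9 genes, 5 rose, 1 fell, and 3 did not pass the test, so that 66.7% changed beside 45.1% of all genes tested. Dctd, which passed the filter only through the group where it was high, could enter this count only as a rise. Of the other 8 genes, 4 rose and 1 fell (62.5%), beside 44.3% of the 13009 genes that reached the filter in both groups. The values of the anti-CD40 and control mice did not overlap for 6 of the 9 genes, beside 42.4% of all genes tested. Of these 6 genes, which include Dctd, 83.3% were higher, beside 52.0% of all genes that changed. Without Dctd, 4 were higher and 1 lower, beside 2877 higher and 2892 lower of the 13009 genes. Those that changed without overlap of the groups then numbered 5 of 8, beside 5055 of the 13009. The median log2 fold change was 1.06 for the 9 genes, 0.50 without Dctd, and 0.0056 for all genes tested. With the serum amyloid genes Saa1, Saa2, and Saa3, which encode acute phase proteins, left out and each mouse rescaled to the same total, the median of all genes moved to 0.35, and 5635 genes were called higher and 1647 lower, in place of 3240 and 2990. The same 5 genes of the 9 were then higher and Slc29a1 lower (log2 fold change -1.32), whereas Cmpk1, Cda, and Rrm2b turned from values below 0 to 0.22, 0.25, and 0.21, each below the median of all genes and not past the threshold.

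**Figure D1:**
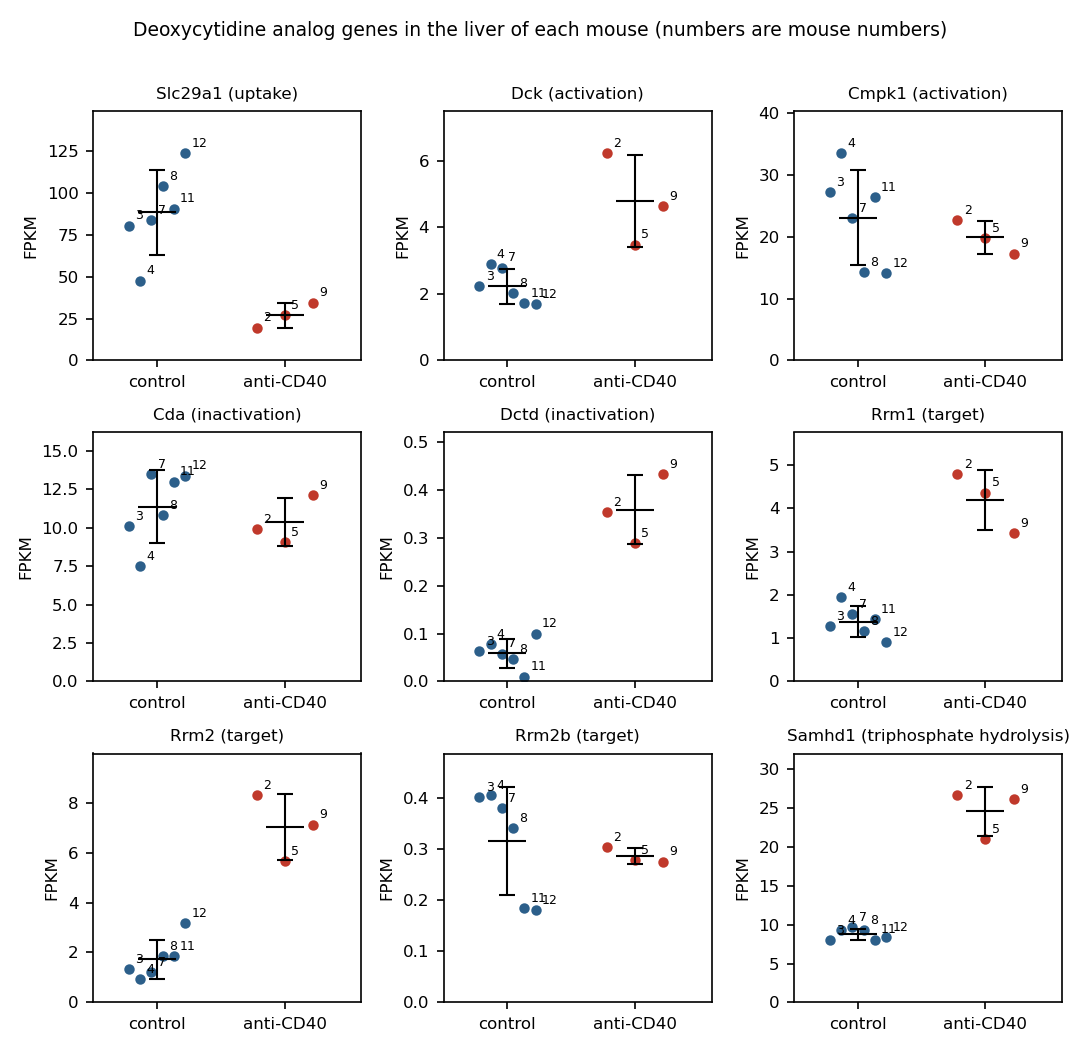
FPKM of each of the 9 genes in the 6 control mice (blue) and the 3 anti-CD40 mice (red), with mouse numbers beside the points, a long bar for the group mean, and short bars for 1 SD on either side. Slc29a1 lies lower in all 3 anti-CD40 mice (19.6 to 34.5) than in any control mouse (47.7 to 124), whereas Dck, Dctd, Rrm1, Rrm2, and Samhd1 lie higher and Cmpk1, Cda, and Rrm2b overlap.

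Slc29a1, the gene of the equilibrative carrier ENT1, lies on chr17:45585200-45599603, minus strand (mm10, as are all positions here). It was at 19.6, 26.9, and 34.5 FPKM in anti-CD40 mice 2, 5, and 9, and in the control mice it ran from 47.7 to 124 with a median of 87.4. The highest anti-CD40 mouse was thus below the lowest control mouse. Means were 27.0 ± 7.45 (SD, n = 3) and 88.5 ± 25.5 (SD, n = 6), which is 30.5% of the control level. The log2 fold change was -1.69 (SE 0.27, adjusted p = 0.000625 by limma, lower in 3 of 3 mice), and the exact permutation p was 0.0238, the smallest possible. An annotated gene on the opposite strand, Gm17080, overlaps Slc29a1 and was not analysed here. Control mouse 4 was lowest and control mouse 12 highest among the controls in both Slc29a1 and the summed hepatocyte markers (22104 and 39526 FPKM). Whether the fall of Slc29a1 goes beyond that of the hepatocyte markers was not tested.

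Of the other nucleoside carriers, 4 of 6 were tested. Slc28a2, a concentrative carrier that prefers purine nucleosides, rose from 0.645 ± 0.227 FPKM (SD, n = 6) to 2.09 ± 0.0351 (SD, n = 3), which is 1.60 on the log2 scale (SE 0.23, adjusted p = 0.000309 by limma). Slc29a3, which encodes the carrier of lysosomes and was named after its values were seen, rose from 2.03 to 4.02 FPKM (log2 fold change 0.95, adjusted p = 0.000312 by limma). The pyrimidine carrier Slc28a1 was low in all mice, at 0.171 to 0.214 FPKM after anti-CD40 and 0.0182 to 0.139 in the controls. These values did not overlap, but the difference missed the threshold (log2 fold change 0.64, adjusted p = 0.0752 by limma), and Slc28a1 passed the filter only through the anti-CD40 mice. Slc29a2, the gene of the equilibrative carrier ENT2, was at 0.188 and 0.204 FPKM on average and did not pass the test (adjusted p = 0.918 by limma, 95% interval of the log2 fold change -0.68 to 0.60). Slc28a3, which encodes a carrier with a broad range of nucleosides, was listed at the floor of 0.01 FPKM in all 9 mice.

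Dck, the gene of deoxycytidine kinase and hence of the first phosphate, lies on chr5:88765013-88783277, plus strand. It was at 6.23, 3.48, and 4.64 FPKM in anti-CD40 mice 2, 5, and 9, and at 1.69 to 2.90 with a median of 2.14 in the control mice. All anti-CD40 mice were higher than all control mice, and mouse 2 was the highest. Mean levels were 4.78 ± 1.38 (SD, n = 3) and 2.23 ± 0.519 (SD, n = 6), a 2.14-fold difference. The log2 fold change was 1.06 (SE 0.23, adjusted p = 0.00339 by limma), with an exact permutation p of 0.0238. Without mouse 2 it was 0.85 (adjusted p = 0.0234 by limma).

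Cmpk1, whose product adds the second phosphate to cytidine and deoxycytidine monophosphates, lies on chr4:114960613-114987228, minus strand. The anti-CD40 mice had 22.7, 19.8, and 17.3 FPKM (mice 2, 5, and 9), all inside the control range of 14.1 to 33.6 (median 24.7). The log2 fold change of -0.15 had a 95% interval of -0.76 to 0.46, and the adjusted p was 0.684 by limma. Cmpk2, which encodes the mitochondrial kinase of the same step, was 2.40-fold higher after anti-CD40 (7.92 ± 1.86 against 3.30 ± 1.18 FPKM, SD, n = 3 and 6, log2 fold change 1.28, adjusted p = 0.00377 by limma).

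Cda, the gene of the deaminase that turns gemcitabine into its inactive uridine form, lies on chr4:138338528-138367955, minus strand. It was at 9.89, 9.08, and 12.1 FPKM in anti-CD40 mice 2, 5, and 9, and at 7.48 to 13.5 with a median of 11.9 in the control mice. The anti-CD40 values lay inside the control range. The log2 fold change was -0.12 with a 95% interval of -0.55 to 0.32 (adjusted p = 0.656 by limma). At this spread, a change of Cda as large as that of Dck in either direction lay outside the interval.

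Dctd, whose product deaminates deoxycytidine monophosphate, lies on chr8:48099092-48141667, plus strand, and is the gene that passed the filter only through the anti-CD40 mice. It was at 0.354, 0.290, and 0.434 FPKM in anti-CD40 mice 2, 5, and 9. In the control mice it ran from the floor of 0.01 (mouse 11) to 0.0999 (mouse 12), with a median of 0.0604. The groups did not overlap, and the means were 0.359 ± 0.0718 (SD, n = 3) and 0.0592 ± 0.0303 (SD, n = 6). Because of how Dctd passed the filter, it is given from the fit of all genes with no filter on low values, where the change on the log2(FPKM + 0.1) scale was 1.54 (adjusted p = 0.000752 by limma). The exact permutation p, which uses no filter, was 0.0238. This size rests on the pseudocount: it was 0.36 with a pseudocount of 1 and 2.57 with 0.01, while the ratio of means was 6.06. The control values stood in whole steps of 6, 8, 6, 4, 0, and 9 reads in mice 3, 4, 7, 8, 11, and 12, which makes 33 reads in all. On the same step the anti-CD40 mice had 39.1, 30.2, and 42.0. The control reads are the smallest whole numbers that match the values, so the true reads could be higher. The anti-CD40 values did not all fall on whole steps, so reads were not recovered for those mice.

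Rrm1 and Rrm2 encode the large subunit and the S phase small subunit of ribonucleotide reductase, the enzyme that gemcitabine diphosphate inhibits. Rrm1 lies on chr7:102441695-102469771, plus strand, where the annotated gene Gm45399 overlaps it on the same strand, and Rrm2 on chr12:24708254-24714146, plus strand. The 250 bases before their RefSeq start sites (GRCm38.p6, both on the plus strand, chr7:102441445-102441694 and chr12:24708004-24708253) are shown because both genes rose. Capitals mark the CCAAT box, the only one of 4 motifs searched that was found in them.
Rrm1: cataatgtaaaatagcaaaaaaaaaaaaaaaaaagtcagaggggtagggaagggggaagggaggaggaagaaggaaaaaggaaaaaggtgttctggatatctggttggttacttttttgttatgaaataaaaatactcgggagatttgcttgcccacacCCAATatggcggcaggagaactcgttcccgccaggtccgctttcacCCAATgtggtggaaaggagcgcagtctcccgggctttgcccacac
Rrm2: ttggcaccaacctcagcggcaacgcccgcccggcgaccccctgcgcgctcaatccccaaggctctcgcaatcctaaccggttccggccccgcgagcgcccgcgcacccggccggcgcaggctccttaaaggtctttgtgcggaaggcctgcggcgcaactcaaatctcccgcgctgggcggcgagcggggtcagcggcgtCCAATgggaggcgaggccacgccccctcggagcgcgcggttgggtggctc
The motifs were searched on both strands from 250 bases before to 50 bases after the start in 8 of the 9 genes, as Rrm2b had no window. CCAAT stood at bases -91 and -45 of Rrm1 and -50 of Rrm2, counted from the start site, and is present in 37.4% of 32851 mouse promoter windows of the same length. The E2F motif (TTTCGCGC or TTTGGCGC), present in 0.813% of windows, was in none of the 8. No match overlapped another. A match is a run of letters and not a measured binding site, and no match means only that these letters are not in the window.

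Rrm1 was at 4.79, 4.36, and 3.42 FPKM in anti-CD40 mice 2, 5, and 9, and in the control mice at 0.906 to 1.95 with a median of 1.35. The lowest anti-CD40 mouse was above the highest control mouse. The means of 4.19 ± 0.701 (SD, n = 3) and 1.38 ± 0.359 (SD, n = 6) gave a 3.04-fold difference and a log2 fold change of 1.56 (SE 0.22, adjusted p = 0.000233 by limma). Rrm2 was at 8.31, 5.66, and 7.12 FPKM, against 0.932 to 3.17 with a median of 1.58 in the control mice. The groups again did not overlap, and control mouse 12 lay well above the other controls. The means of 7.03 ± 1.33 (SD, n = 3) and 1.72 ± 0.799 (SD, n = 6) gave a 4.09-fold difference and a log2 fold change of 2.06 (SE 0.32, adjusted p = 0.000447 by limma). The exact permutation p was 0.0238 for both genes.

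Rrm2b encodes the p53-inducible small subunit, which supplies deoxynucleotides for DNA repair and to cells outside S phase. It lies on chr15:37923953-37961055, minus strand, with annotated genes overlapping it on the same strand (Gm3362) and the opposite strand (Gm49085). It was at 0.303, 0.278, and 0.275 FPKM in anti-CD40 mice 2, 5, and 9, inside the control range of 0.180 to 0.405 (median 0.360). Control mice 3, 4, 7, and 8 (0.340 to 0.405) lay above all anti-CD40 mice, and control mice 11 and 12 (0.184 and 0.180) below them. These values rested on few reads, at least 23 to 29 after anti-CD40 and 14 to 36 in the controls. The log2 fold change of -0.063 (95% interval -0.62 to 0.49, adjusted p = 0.857 by limma) changed sign without control mouse 4, to 0.0021, and an increase the size of that of Rrm1 or Rrm2 lay outside the interval. Without control mouse 11 or 12 the log2 fold change was -0.16 or -0.17 and did not pass the test.

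Genes of S phase and proliferation were read in the same libraries as Rrm1 and Rrm2. Of 20 such genes, 19 rose and none fell, with a median log2 fold change of 2.21 and a summed level of 131 to 161 FPKM in the anti-CD40 mice against 30.6 to 43.3 in the control mice. Mki67, Cdc6, and Uhrf1 passed the filter only through the anti-CD40 mice, and without these 3 the count was 16 of 17, with a median of 2.18 (Cdc6 and Uhrf1 were named after their values were seen). Examples were Top2a, which untangles DNA (log2 fold change 3.89, adjusted p = 5.09e-06 by limma), Ccna2, the cyclin of S phase and G2 (3.37, adjusted p = 7.12e-06), Mcm2 of the replicative helicase (2.41, adjusted p = 7.42e-06), and Pcna, the clamp of DNA polymerase (0.94, adjusted p = 0.00335). The proliferation marker Mki67, fitted with no filter on low values, was at 2.20 (adjusted p = 1.76e-05 by limma). E2f1, named after its values were seen, did not pass the test (log2 fold change 0.26, adjusted p = 0.483 by limma). Control mouse 12, highest of the controls in Rrm2, was also highest of the controls in this sum (43.3 FPKM), but it was the lowest in Rrm1.

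Tk1 and Tyms, genes of thymidine nucleotide supply, were also read. Tk1, the cytosolic thymidine kinase known for its rise in S phase, fell from 14.8 ± 1.97 FPKM (SD, n = 6) to 4.57 ± 0.106 (SD, n = 3). All anti-CD40 mice (4.45 to 4.64) were below all control mice (12.1 to 17.1), and the log2 fold change was -1.66 (SE 0.13, adjusted p = 5.83e-06 by limma). This value is uncertain as a measure of Tk1, since the table gives Tk1 the same locus as Afmid, an overlapping gene whose product acts in tryptophan breakdown. Afmid, named after its values were seen, fell from 134 ± 30.8 FPKM (SD, n = 6) to 21.9 ± 2.98 (SD, n = 3), and whether its reads entered the Tk1 value was not tested. Tyms, the gene of thymidylate synthase, was at 2.78 to 3.57 FPKM after anti-CD40 and 1.86 to 3.12 in the controls, and did not pass the test (log2 fold change 0.39, adjusted p = 0.0924 by limma). It passed without control mouse 7, at 0.47 (adjusted p = 0.0305 by limma).

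**Figure D2:**
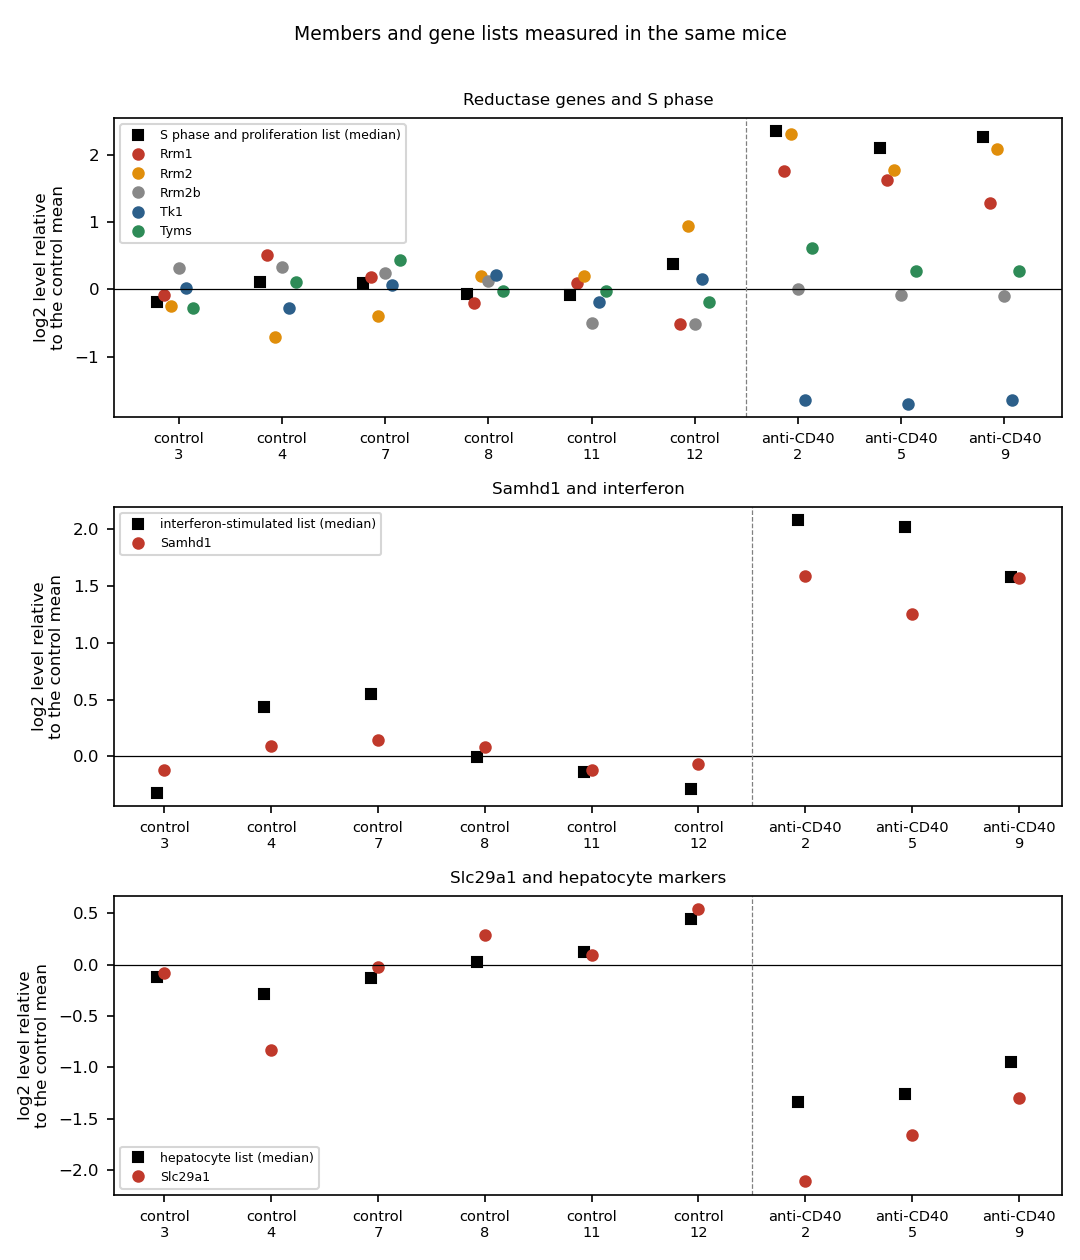
Log2 level of each mouse relative to the control mean for the reductase genes, Tk1, and Tyms with the median of the S phase list (top), Samhd1 with the median of the interferon-stimulated list (middle), and Slc29a1 with the median of the hepatocyte list (bottom), control mice left of the dashed line. Rrm1 and Rrm2 lie with the S phase median above 1 in the anti-CD40 mice, where Tk1, which shares its locus in the table with Afmid, lies at -1.64 to -1.70, and Slc29a1 lies at -1.30 to -2.11.

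Genes that p53 activates were read beside Rrm2b. Of 17 tested, 10 rose (9 of 16 without Tnfrsf10b, which passed the filter only through the anti-CD40 mice) and 2 fell, with a median log2 fold change of 0.84 and a summed level of 330 to 347 FPKM against 178 to 237 in the control mice. Mdm2, the ubiquitin ligase of p53, rose from 21.8 ± 2.63 FPKM (SD, n = 6) to 43.9 ± 3.77 (SD, n = 3), with a log2 fold change of 1.01 (adjusted p = 0.000109 by limma). Cdkn1a, the cell cycle inhibitor p21, rose from 11.2 ± 11.9 to 51.4 ± 12.3 FPKM (log2 fold change 2.87, adjusted p = 0.0128 by limma), a call lost without the filter on low values (adjusted p = 0.0565) and without anti-CD40 mouse 5 and control mouse 4 (adjusted p = 0.0579). The Cdkn1a values of the controls were split, at 2.24 to 5.29 FPKM in mice 3, 4, 7, and 8 and at 24.4 and 28.5 in mice 11 and 12. Ccng1, a cyclin of the same program, did not pass the test (log2 fold change 0.24, adjusted p = 0.164 by limma), but passed with the Saa genes left out and rescaled (0.60, adjusted p = 0.00729). Named after their values were seen, as was Tnfrsf10b, the genes that fell were the death gene Bbc3 and Ei24, and those that did not pass besides Ccng1 were Phlda3, Gdf15, Aen, and Tigar.

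Samhd1, whose product hydrolyses deoxynucleoside triphosphates, lies on chr2:157097529-157135222, minus strand. The 250 bases before its RefSeq start site (GRCm38.p6, chr2:157135097-157135346, minus strand, a start 126 bases from the end given in the deposited table) are shown beside those of Cmpk1 (chr4:114987229-114987478, minus strand), since these windows held the interferon-response letters searched. Capitals mark the GAS motif (TTCNNNGAA) in Samhd1 and the ISRE core (GAAA and GAAA with 2 bases between them) in Cmpk1.
Samhd1: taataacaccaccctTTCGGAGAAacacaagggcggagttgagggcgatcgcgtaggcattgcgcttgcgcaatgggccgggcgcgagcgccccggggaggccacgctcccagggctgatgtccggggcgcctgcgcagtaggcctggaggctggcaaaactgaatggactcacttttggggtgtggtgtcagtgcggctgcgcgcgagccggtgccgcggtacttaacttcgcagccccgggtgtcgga
Cmpk1: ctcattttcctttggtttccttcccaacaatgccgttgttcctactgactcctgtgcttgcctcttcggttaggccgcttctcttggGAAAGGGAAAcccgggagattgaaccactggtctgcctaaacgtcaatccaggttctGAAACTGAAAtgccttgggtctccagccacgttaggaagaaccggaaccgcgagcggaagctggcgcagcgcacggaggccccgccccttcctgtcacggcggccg
The GAS motif of Samhd1 was at base -235 and is present in 8.30% of the 32851 windows. The ISRE core was at bases -163 and -106 of Cmpk1, which did not pass the test, and is present in 3.44% of windows. Neither motif was found in the other genes with a window.

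Samhd1 was at 26.7, 21.0, and 26.2 FPKM in anti-CD40 mice 2, 5, and 9, and at 8.06 to 9.66 with a median of 8.81 in the control mice. The control mice lay close together, and all anti-CD40 mice were higher. The means were 24.6 ± 3.10 (SD, n = 3) and 8.79 ± 0.711 (SD, n = 6), a 2.80-fold difference. The log2 fold change was 1.47 (SE 0.12, adjusted p = 6.57e-06 by limma), with an exact permutation p of 0.0238. Interferon-stimulated genes, read in the same libraries because Samhd1 is known to respond to interferon, rose in 14 of 16 cases and none fell, with a median log2 fold change of 1.98 and a summed level of 1026 to 1384 FPKM against 273 to 549. Isg15 and Ifit1, effectors of the antiviral response, rose by log2 fold changes of 1.95 and 1.79 (adjusted p = 0.000257 and 0.00440 by limma). Irf1 and Bst2 did not pass the test (log2 fold change 0.33 and 0.50, adjusted p = 0.179 and 0.141 by limma) and were named after their values were seen. Control mice 4 and 7, highest of the controls in the interferon sum (470 and 549 FPKM), were at 0.09 and 0.14 on the log2 scale above the control mean of Samhd1. Control mouse 8, with a sum of 383 FPKM, was at 0.08. Anti-CD40 mice 2, 5, and 9 had interferon sums of 1384, 1228, and 1026 FPKM. Their Samhd1 levels were 1.59, 1.25, and 1.57, so the order differed. The part of interferon in the rise of Samhd1 was not tested.

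Ratios between genes of the route were taken within each mouse, on the log2(FPKM + 0.1) scale, and are described without a test. Such a ratio shows only whether the change was unequal. The ratio of Dck to Cda, kinase over deaminase, was -2.92 to -1.34 in the control mice and -1.37 to -0.66 after anti-CD40, a mean difference of 1.17. Control mouse 4, at -1.34, lay inside the anti-CD40 range, and the other controls lay below it. The ratio of Dck to Dctd was 3.15 to 3.80 against 3.16 to 4.19, a mean difference of -0.48 with overlap of the groups. This difference rests on the pseudocount of 0.1, which exceeds the control mean of Dctd (0.0592 FPKM) and makes its rise look smaller. The ratio of group means, without a pseudocount, was 2.14 for Dck and 6.06 for Dctd. The ratio of Rrm2 to Rrm1 was -0.99 to 1.70 in the control mice and 0.37 to 1.04 after anti-CD40, again with overlap. The ratio of Rrm2 to Rrm2b was 3.93 to 4.38 against 1.03 to 3.55, a mean difference of 2.12, and was the only one of the 4 whose groups did not overlap.

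**Figure D3:**
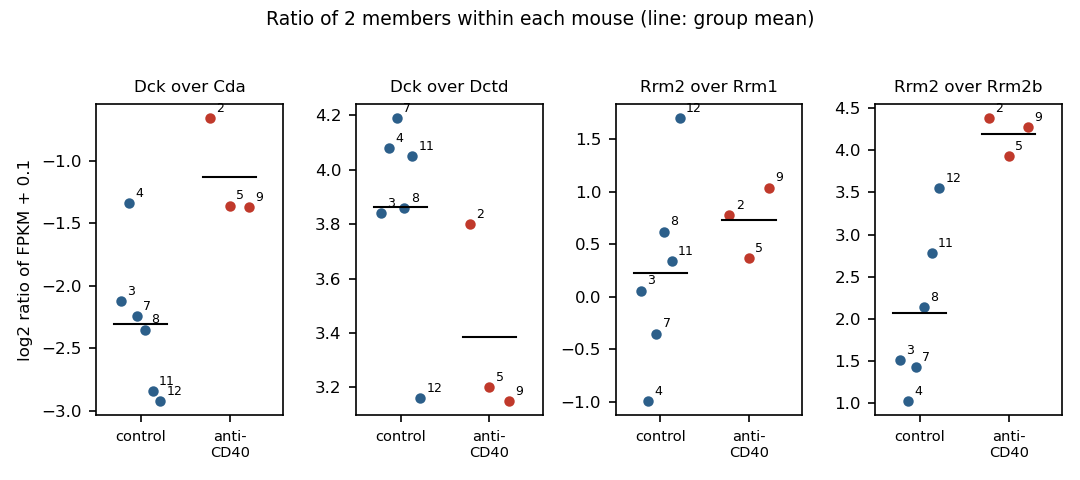
Log2 ratio of 2 genes of the route within each mouse, for 4 pairs, in the 6 control mice (blue) and 3 anti-CD40 mice (red), with mouse numbers and a line at each group mean. Rrm2 over Rrm2b is the pair without overlap (3.93 to 4.38 against 1.03 to 3.55), and control mouse 4 lies among the anti-CD40 mice in Dck over Cda.

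Reads could be recovered, as the smallest whole numbers that match, for 6 of the 9 genes, and the spread of the control mice is given beside the counting error at those reads as a description. For Dck the coefficient of variation between control mice was 23.3%, beside a counting error of 9.02%, for Cmpk1 33.4% against 3.65%, and for Rrm2 46.5% against 12.5%. Rrm1 had 26.1% against 9.94%, Cda 21.0% against 8.75%, and Rrm2b 33.5% against 19.5%. Control mice 4 and 12 stood at opposite ends of the control range in 6 of the 9 genes. This pair was named after its values were seen. The share of all genes with these mice at the ends was not counted, so the count is not read as particular to the 9 genes. Mouse 4 was highest and mouse 12 lowest in Dck, Cmpk1, Rrm1, and Rrm2b, and the reverse held in Slc29a1 and Rrm2. Mouse 4 had the lowest and mouse 12 the highest summed hepatocyte markers of the controls, and mouse 4 the highest neutrophil sum (155 FPKM), and the part of these differences in the spread was not tested.

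The rest of the pyrimidine nucleoside route was read in 44 further genes, of which 41 were tested. Of these, 11 rose, 14 fell, and 16 did not pass, so that 61.0% changed, beside 45.1% of all genes tested (23.5% higher and 21.7% lower), with a median log2 fold change of -0.04. The counts by step below cover few genes each and are descriptions. Like Tk1, the genes Abcc4, Abcc10, Ctps2, Nme3, Uck1, Uckl1, Nt5c, Nt5c2, Nt5c3b, Dpys, and Tymp are given one locus with at least 1 other gene. So is Ccna2, named above. How reads were divided there is not known. The genes that share the loci of Abcc4 and Nt5c2 were at the floor of 0.01 FPKM in all mice. Breakdown of pyrimidines was the step with the largest share of genes that fell. Of its 6 genes, 4 fell and 1 rose, with a median log2 fold change of -1.40 and a summed level of 238 to 353 FPKM in the anti-CD40 mice against 1162 to 1778 in the control mice.

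Upp2, a uridine phosphorylase of the liver, fell the most of the 41 genes tested. It was at 35.4, 70.2, and 112 FPKM in anti-CD40 mice 2, 5, and 9, and at 592 to 1258 with a median of 1015 in the control mice, 13.3-fold lower on average (log2 fold change -3.85, SE 0.33, adjusted p = 1.03e-05 by limma). Its paralog Upp1 moved the other way, from 4.53 ± 0.646 FPKM (SD, n = 6) to 26.8 ± 5.98 (SD, n = 3), with a log2 fold change of 2.52 (adjusted p = 2.45e-06 by limma). Dpyd, the rate-limiting enzyme of uracil and thymine breakdown, fell from 26.4 ± 10.8 to 8.43 ± 1.80 FPKM (log2 fold change -1.55, adjusted p = 0.00319 by limma), and Dpys, which acts on the next intermediate, fell from 135 ± 27.4 to 46.0 ± 9.41 FPKM (-1.55, adjusted p = 8.94e-05). Upb1, the enzyme after Dpys and named after its values were seen, fell as well (log2 fold change -1.25, adjusted p = 0.000142 by limma). Tymp, thymidine phosphorylase, did not pass the test (adjusted p = 0.319 by limma). The hepatocyte markers named above fell in the same mice, and their part in these decreases was not tested.

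Of 6 genes of pyrimidine synthesis, 3 rose and 2 fell. Ctps, which encodes a CTP synthase, rose from 1.77 ± 0.412 FPKM (SD, n = 6) to 6.50 ± 1.48 (SD, n = 3), with a log2 fold change of 1.83 (adjusted p = 8.13e-05 by limma). Its paralog Ctps2 and Cad, the first enzyme of the pathway, rose (log2 fold change 1.03 and 1.02, adjusted p = 0.00134 and 0.00463 by limma), while Dhodh and Umps of the later steps fell (-0.57 and -0.49, adjusted p = 0.00998 and 0.0143 by limma). These 4 were named after their values were seen. Of 13 other nucleoside or nucleotide kinases, Cmpk2 rose and 5 fell, which besides Tk1 were Tk2, Uck1, Nme2, and Nme3 (log2 fold changes -0.70, -1.01, -0.33, and -1.40, named after their values were seen). Dguok, the mitochondrial kinase of deoxyguanosine, did not pass (log2 fold change 0.20, adjusted p = 0.328 by limma).

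Among 8 nucleotidases and nucleotide pyrophosphatases tested, 3 rose and 3 fell. Named after their values were seen, Nt5c2, Nt5c3b, and Dut rose (log2 fold changes 0.66, 0.77, and 0.55) and Nt5e, Nt5m, and Dctpp1 fell (-1.22, -0.58, and -1.09). Nt5c2 encodes a cytosolic enzyme that takes phosphate off purine nucleotides, Nt5e encodes the surface enzyme CD73, and Dctpp1 a pyrophosphatase that removes deoxycytidine triphosphate. Of 4 efflux pumps of nucleoside analogs, Abcc5 rose from 1.31 ± 0.326 FPKM (SD, n = 6) to 3.46 ± 0.156 (SD, n = 3), with a log2 fold change of 1.37 (adjusted p = 0.000260 by limma). Abcc4 was at 1.74 to 2.28 FPKM after anti-CD40 and 1.50 to 2.71 in the controls, and its log2 fold change had a 95% interval of -0.44 to 0.39 (adjusted p = 0.936 by limma).

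**Figure D4:**
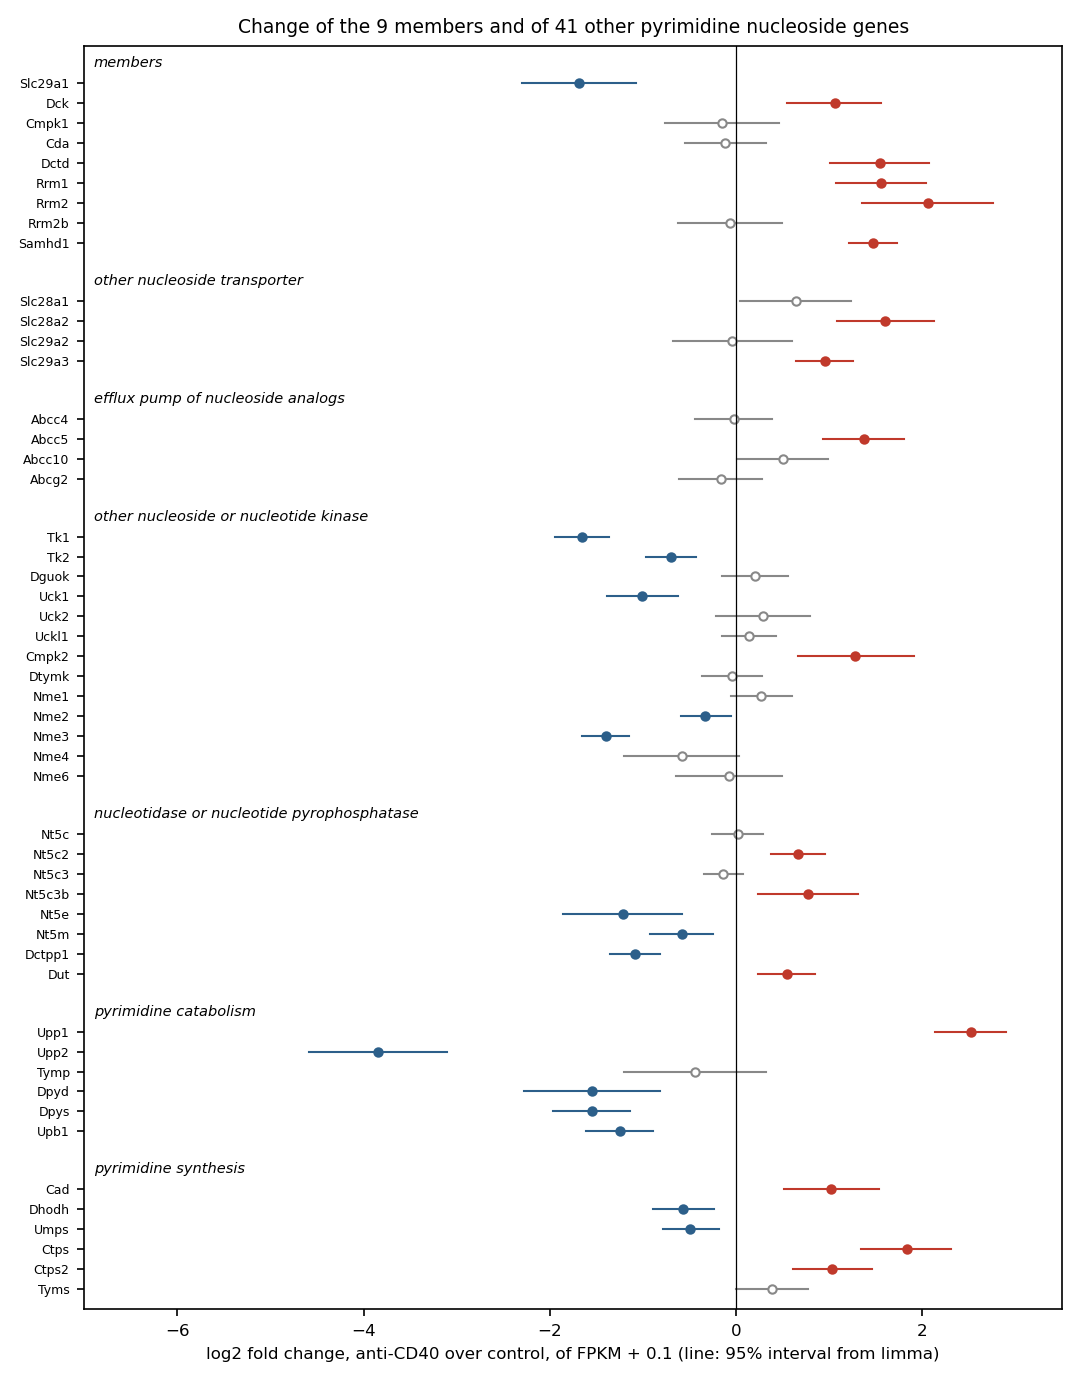
Log2 fold change, anti-CD40 over control, of the 9 genes (top block) and the 41 other pyrimidine nucleoside genes tested, by step, with lines for the 95% interval from limma. Red marks genes that rose, blue those that fell, and open grey circles those that did not pass an adjusted p of 0.05, with Upp2 at -3.85 and Upp1 at 2.52 as the outermost points.

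For each of the 6 genes that changed, the 3 genes with the nearest profile over the 9 mice were taken from 10155 genes with a mean of at least 1 FPKM, by the root mean square difference of log2 levels relative to the control mean. Slc29a1 was nearest to Apoe (0.129), Slc25a23 (0.135), and Serpina1c (0.142), whose log2 fold changes were -1.79, -1.76, and -1.53. Samhd1 was nearest to Vasp (0.0949), the class I gene H2-K1 (0.0962), and Dapp1 (0.117), with log2 fold changes of 1.43, 1.40, and 1.49. Rrm2 was nearest to Cdc45 (0.138), a part of the replicative helicase, and then to Csf2rb (0.245) and Hdc (0.261).

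Rrm1 was nearest to Arhgap25 (0.154), Mfsd7b (0.156), and Birc2 (0.157), none of which is a replication gene by its known role. Dck was nearest to Col6a3 (0.137), Mtf2 (0.137), and Ankrd44 (0.140). Dctd was nearest to Lrmp (0.130), Hrct1 (0.156), and Clic1 (0.177). The likeness includes the difference between the groups, so genes that changed by a like amount on the log2(FPKM + 0.1) scale come first. For Dctd this likeness rests on the pseudocount. Its ratio of means was 6.06, while Lrmp rose from 2.39 to 7.32 FPKM, Hrct1 from 1.54 to 4.24, and Clic1 from 24.3 to 71.6.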

How the data were processed

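RNA from the livers of 9 mice was made into QuantSeq 3′ libraries for a NextSeq 500. Reads were aligned by the authors to mm10 (STAR, in BaseSpace) and passed to Cufflinks and CuffDiff, and the authors deposited 1 FPKM per gene and mouse, with a floor of 0.01. Versions are not given in the submitters' processing notes, and the annotation and the filter behind the table are not given in the sources used here. The 15 genes with a failed estimate were left out and no scaling was added.

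Mice were grouped by their labels. The deposited FPKM were analysed as log2(FPKM + 0.1) for the 13807 genes whose mean was 0.1 or more, in limma 3.58.1 (R 4.3.3, eBayes with a trend, treatment only, 2-sided, Benjamini-Hochberg at 0.05). CuffDiff, the test of the study, needs reads and was replaced by this fit. Single genes also had an exact permutation test, in scipy 1.17.1. Steps between low values gave the relative depth of the mice, 0.870 to 1.13. They gave whole reads (within 0.05), all under 60, for 425 of 500 low genes. With no such limit on the reads, whole reads were found for 6 of the 9 genes. The absolute depth is unknown, so no count test was run, and intervals cover the spread between mice only. How reads of overlapping genes were assigned is not given in the sources used here.

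The 9 genes, the pathway genes, and the lists were chosen with earlier results of these data known. All 9 genes were named whatever their values. Of the pathway list, up to 4 increases and 4 decreases by size were named, with Tk1, Tyms, Cmpk2, Slc29a2, Slc28a1, Slc28a2, Upp2, Dpyd, and Abcc4, and 11 set genes of the lists read beside them, of which 1 is not reported here. Promoter windows, for 8 of 9 genes, came from RefSeq (GRCm38.p6). The fit and the read recovery were tested on simulated data. Alternatives were other pseudocounts, filters, scalings, and variance settings, a fold threshold, and leaving out mice.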

Additional observations from a re-analysis of the deposited data

How the results depend on the processing

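Over 20 alternatives (19 for Dctd and Rrm2b, which a filter of a mean of at least 1 FPKM removed), the 6 genes that changed kept their direction and an adjusted p under 0.05 by limma. Their log2 fold changes ran from -1.89 to -1.32 for Slc29a1, 0.83 to 1.41 for Dck, 0.36 to 2.57 for Dctd, 1.13 to 1.91 for Rrm1, 1.60 to 2.41 for Rrm2, and 1.38 to 1.83 for Samhd1. Leaving out each mouse in turn gave 6 genes called in each case, 21 to 26 pathway genes, and 4814 to 6830 of all genes. With a log2 fold change of at least 1 in size also asked for, 16 pathway genes (7 higher, 9 lower) and 3142 of all genes (1889 higher, 1253 lower) were called, by the construction of that rule. With the Saa genes left out and rescaled, 29 pathway genes were called (19 higher, 10 lower), and Cmpk1 (0.22), Cda (0.25), Rrm2b (0.21), Slc29a2 (0.19), and Abcc4 (0.33) changed sign. Near 0, signs also turned with mice left out, over ranges of -0.17 to 0.0021 for Rrm2b, -0.21 to 0.056 for Slc29a2, and -0.13 to 0.064 for Abcc4: Rrm2b without control mouse 4 (0.0021), Slc29a2 without anti-CD40 mouse 5 or 9 or control mouse 3, 11, or 12 (0.056, 0.025, 0.030, 0.014, and 0.042), and Abcc4 without anti-CD40 mouse 5 or 9 or control mouse 4 or 8 (0.060, 0.0011, 0.064, and 0.0061). Leaving out anti-CD40 mouse 5 and control mouse 4 together, an alternative chosen after seeing the data, gave 0.015, 0.034, and 0.15 for these 3 genes. None of these sign changes passed the threshold, and the cause was not tested. Tyms, Slc28a1, and Ccng1 passed it with the Saa genes left out (0.74, 0.86, and 0.60), Slc28a1 also without the trend in the variance (adjusted p = 0.0435 by limma).

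No paired analysis was possible because the control and anti-CD40 mice share no numbers. With 3 anti-CD40 mice the exact test cannot pass an adjustment over many genes. The levels of Dctd and Rrm2b rest on few reads.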

Other observations

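Markers of the other liver cells did not move one way. Of 6 markers of sinusoidal endothelium, Lyve1 and Pecam1 rose and Clec4g and Kdr fell, with a summed level of 70.1 to 80.9 FPKM in the anti-CD40 mice against 75.7 to 104 in the control mice. Of 5 stellate cell markers, Pdgfrb and Col1a1 rose (log2 fold changes 1.10 and 1.79) and Lrat and Reln, markers of the quiescent state, fell (-1.23 and -2.06). Of 5 cholangiocyte markers, Sox9 and Spp1 rose (3.57 and 2.39), while the keratins Krt7 and Krt19 and Epcam did not pass the test. These genes were named after their values were seen.

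No erythroid marker of 5 tested passed the threshold. Their summed level was 4176 to 14320 FPKM after anti-CD40 and 7494 to 50531 in the controls, with control mouse 4 at the top. No pancreatic acinar marker of 6 tested passed either, and the sum was 69.4 to 189 FPKM in the control mice. Beside these markers, anti-CD40 mouse 5 had the lowest Dck, Dctd, Rrm2, and Samhd1 of its group (3.48, 0.290, 5.66, and 21.0 FPKM), all still above every control mouse. It was also lowest of its group in Cda (9.08 FPKM), but not in Slc29a1, Cmpk1, Rrm1, or Rrm2b. Whether these levels go with its acinar transcripts was not tested.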
